A study of Mus musculus with 24 samples.

Results

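The miR-23, miR-27 and miR-24 miRNAs of the mouse come from a pair of gene clusters, called a and b. The 5 mature miRNAs described here were taken by name from the 1009 miRNAs listed in the deposited table. mmu-miR-23a-3p and mmu-miR-27a-3p are made only by the a cluster, mmu-miR-23b-3p and mmu-miR-27b-3p only by the b cluster, and mmu-miR-24-3p by both (the species prefix is left out below). Small RNA was sequenced from whole mammary glands of C57/BL6 female mice at 4 stages, with 6 mice per stage and 1 library per mouse. The adult mice were 10 weeks old (W10), the pregnant mice were at day 18 of gestation (P18), the lactating mice at day 7 of lactation (Lac7) and the involuting mice at day 3 of involution (Inv3). No treatment or engineered allele is named for any stage. The gland was taken whole, so fewer cells of a type and less of a miRNA per cell cannot be told apart in any value below.

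A miRNA cluster is copied as a single primary transcript, which is cut into hairpins and then into mature strands of similar length. A mature strand guides the silencing complex to messenger RNAs, mainly through its seed, which is bases 2 to 8. The suffixes 5p and 3p name the strands from the 5′ and 3′ sides of a hairpin. miR-23 is known for repressing glutaminase, miR-27 for restraining the formation of fat cells, and miR-24 for acting on cell cycle and apoptosis genes. Both clusters are also well known in endothelial cells. The mammary gland changes from ducts within a fat pad to milk-making alveoli between adulthood and lactation, and loses its secretory epithelium during involution.

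The mature sequences show how alike the a and b members are, which bears on each a-to-b comparison below. They are given as in RefSeq for GRCm38.p6, which holds entries for 4 of the 5 members, with the seed in capitals:
miR-23a-3p: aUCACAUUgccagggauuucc
miR-27a-3p: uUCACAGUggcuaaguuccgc
miR-27b-3p: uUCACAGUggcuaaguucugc
miR-24-3p: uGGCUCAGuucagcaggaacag
The first 18 bases of miR-23a-3p occurred unchanged in the Mir23b hairpin, from which miR-23b-3p is cut, and they include the seed. miR-27a-3p and miR-27b-3p shared their seed and differed at 1 of 21 bases, C19U, counted from the 5′ end with the miR-27a-3p base first. miR-24-3p shared its seed with none of the other members.

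The opposite strands of the miR-27 hairpins differ more, so they are shown as a second reading of the same clusters, again with bases 2 to 8 in capitals:
miR-27a-5p: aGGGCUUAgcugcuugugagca
miR-27b-5p: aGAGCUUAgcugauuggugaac
These 5p strands differed at 8 of 22 bases, including G3A within the seed.

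The a cluster spanned 404 bases of the plus strand at chr8:84208518-84208921 (GRCm38). Within it, Mir23a at chr8:84208518-84208592 and Mir27a at chr8:84208672-84208758 overlapped no other annotated gene, and Mir24-2 at chr8:84208815-84208921 overlapped an exon of the lincRNA Gm26532. The b cluster spanned 792 bases of the plus strand at chr13:63300484-63301275. Mir23b at chr13:63300484-63300557 lay in an intron of the protein-coding gene 2010111I01Rik, while Mir27b at chr13:63300712-63300784 and Mir24-1 at chr13:63301208-63301275 overlapped exons of its transcripts. All 3 hairpins of the b cluster also lay antisense to an intron of Fancc.

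Levels are in RPM, the reads of a miRNA scaled so that each library sums to 1000000. The libraries held 660346 to 1165321 reads, with a median of 693166 at Lac7 and between 952080 and 1030978 at the other stages, so 3 reads corresponded to 2.57 to 4.54 RPM. All 5 members had reads in all 24 libraries, with 1896 reads or more per library for miR-23a-3p, miR-23b-3p and miR-27b-3p, 279 or more for miR-27a-3p and 325 or more for miR-24-3p. For the first 3 the counting error (CV) was at most 2.05%, against 5.57% or more between mice. It took up most of the spread for miR-27a-3p at Lac7 (5.76% of 5.95%) and much of it for miR-24-3p at Lac7 (4.70% of 7.17%), and was below the spread between mice for these 2 miRNAs at the other stages, at 4.81% or less. Stages were compared with limma on log2(RPM + 1) over the 544 miRNAs with a mean of 1 RPM or more at some stage, with Benjamini-Hochberg adjustment, and a difference was called at an adjusted p under 0.05. The median log2 change of all 544 lay away from 0 in RPM, at -0.32 for P18 against W10, -0.34 for Lac7 against P18, 0.28 for Inv3 against Lac7, -0.66 for Lac7 against W10, -0.41 for Inv3 against W10 and -0.11 for Inv3 against P18. After scaling by size factors in place of the library total, which sets a typical miRNA level between libraries, the medians of the 538 miRNAs that then passed the same filter were -0.08, -0.13, 0.17, -0.28, -0.09 and -0.02. Values with that scaling are therefore given wherever they changed a call or a direction, and ratios between members within a library, which no scaling can change, carry the comparison of the clusters.

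The 5 miRNAs covered a wide range of levels, and the dominant cluster differed between the families. miR-27b-3p was among the most abundant miRNAs of the gland, at rank 9 to 14 by stage mean, followed by miR-23a-3p at rank 12 to 34 and miR-23b-3p at rank 33 to 38. miR-27a-3p at rank 73 to 89 and miR-24-3p at rank 74 to 93 were much lower. The listed miR-24-3p level, used here and in the shares that follow, cannot be told apart from that of miR-3074-5p, as described further below. The 5 together took 3.39% ± 0.318 of the reads at W10, 3.99% ± 0.273 in P18 glands, 4.57% ± 0.233 in Lac7 glands and 4.26% ± 0.533 at Inv3 (SD, n = 6).

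**Figure D1:**
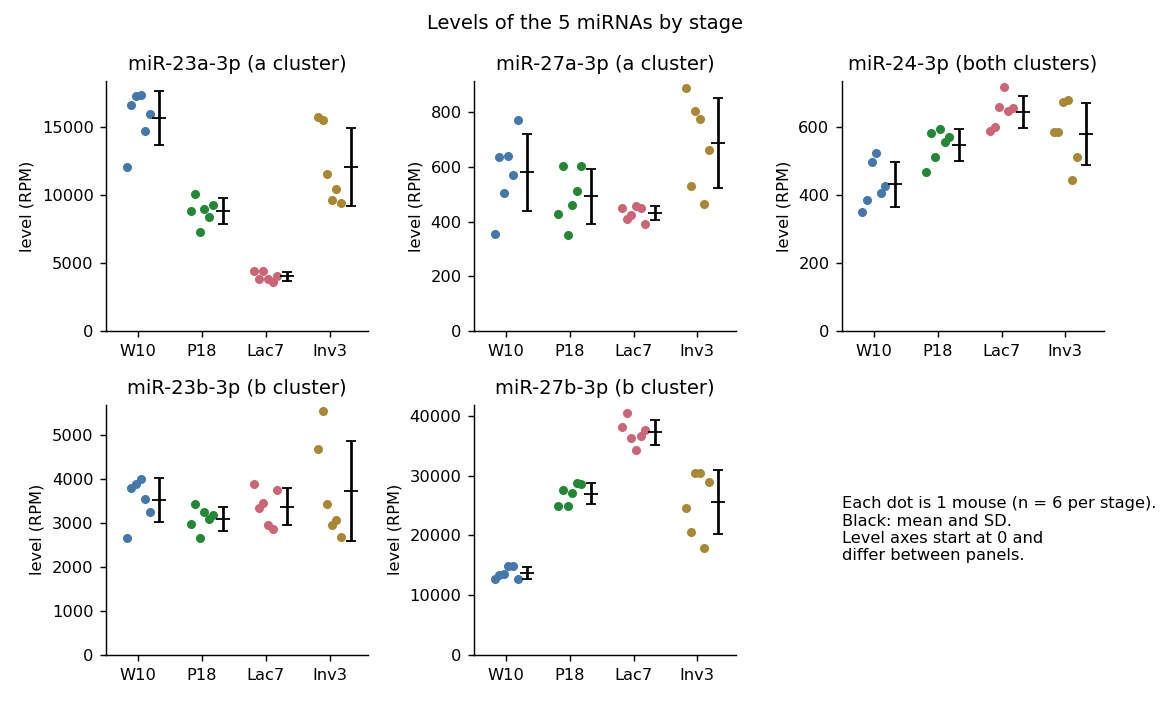
RPM of each miRNA (vertical axis, from 0) in each mouse (dots) at the 4 stages, with the mean and SD in black (n = 6). miR-23a-3p falls from W10 to Lac7 while miR-27b-3p rises, and miR-23b-3p keeps stage means between 3100 and 3735 RPM.

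miR-23a-3p was highest in adult glands and lowest in lactation. It had 12041 to 17298 RPM at W10 with a median of 16274, 7314 to 10094 at P18 with a median of 8912, 3628 to 4426 at Lac7 with a median of 3940, and 9440 to 15751 at Inv3 with a median of 10979. Neither W10, P18 nor Lac7 overlapped another of these stages, and every Inv3 mouse lay above every Lac7 mouse but within or below the range of W10. The level fell 1.77-fold from W10 to P18 (log2 change -0.82 ± 0.13 SE, limma adjusted p = 6.39e-06) and 2.19-fold from P18 to Lac7 (-1.13 ± 0.13, limma adjusted p = 5.18e-08). It then rose 2.93-fold from Lac7 to Inv3 (1.55 ± 0.13, limma adjusted p = 5.89e-10). Across the whole course from W10 to Lac7 it fell 3.87-fold (limma adjusted p = 6.69e-13).

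The return of miR-23a-3p at Inv3 passed the P18 level by 1.34-fold (limma adjusted p = 0.0136). In RPM it stayed 1.32-fold below W10 (log2 change -0.40 ± 0.13, limma adjusted p = 0.0139). That last difference rested on the scaling, since it was -0.02 with size factors (limma adjusted p = 0.926). The order of the levels was thus W10, Inv3, P18 and Lac7, with W10 and Inv3 not told apart with size factors.

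miR-23b-3p, the b cluster's counterpart, moved little in RPM. It had 2665 to 4010 RPM at W10 with a median of 3679, 2656 to 3432 at P18 with a median of 3137, 2871 to 3891 at Lac7 with a median of 3406, and 2684 to 5550 at Inv3 with a median of 3263. The ranges of all 4 stages overlapped. The 6 log2 changes lay between -0.18 ± 0.15 (P18 against W10, limma adjusted p = 0.341) and 0.22 ± 0.15 (Inv3 against P18, limma adjusted p = 0.294), and limma called 0 of the 6, with 0 at an unadjusted p under 0.05. By edgeR 2 were called and by DESeq2 4. Scaled by size factors instead, its level shifted, as Lac7 against W10 became 0.50 (limma adjusted p = 0.00376), Inv3 against W10 0.42 (limma adjusted p = 0.026) and Lac7 against P18 0.42 (limma adjusted p = 0.0159). The last of these was also called by DESeq2 (0.43, adjusted p = 0.0104) but not by edgeR (0.29, adjusted p = 0.122).

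miR-27b-3p ran opposite to miR-23a-3p. It had 12677 to 14918 RPM at W10 with a median of 13445, 24863 to 28776 at P18 with a median of 27390, 34256 to 40506 at Lac7 with a median of 37125, and 17960 to 30492 at Inv3 with a median of 26823. W10, P18 and Lac7 did not overlap, Inv3 lay between W10 and Lac7 without touching either, and only P18 and Inv3 overlapped. It rose 1.97-fold from W10 to P18 (log2 change 0.98 ± 0.11 SE, limma adjusted p = 7.85e-08) and 1.38-fold from P18 to Lac7 (0.47 ± 0.11, limma adjusted p = 0.00109). It then fell 1.49-fold from Lac7 to Inv3 (-0.57 ± 0.11, limma adjusted p = 0.000128). At Inv3 it was still 1.83-fold above W10 (limma adjusted p = 8.61e-07) and within its spread of P18 (-0.11 ± 0.11, limma adjusted p = 0.533).

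miR-27a-3p, which shares all but 1 base with miR-27b-3p, was 25.0 ± 6.49 times lower than it at W10 and 87.1 ± 8.90 times lower at Lac7 (SD, n = 6). It had 354 to 771 RPM at W10 with a median of 603, 351 to 604 at P18 with a median of 485, 392 to 455 at Lac7 with a median of 437, and 464 to 886 at Inv3 with a median of 718. The Lac7 mice were close together and lay inside the ranges of W10 and P18, and all Inv3 mice were above all Lac7 mice. The 1.56-fold rise from Lac7 to Inv3 was called (log2 change 0.64 ± 0.17 SE, limma adjusted p = 0.0037). Inv3 against P18 passed narrowly (0.47 ± 0.17, limma adjusted p = 0.0461), and leaving out any 1 of 16 of the 24 libraries lost the call, with limma adjusted p of 0.051 to 0.128.

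The steps of miR-27a-3p from W10 to Lac7 were small in RPM. Its log2 changes were -0.22 ± 0.17 for P18 against W10 (limma adjusted p = 0.333) and -0.17 ± 0.17 for Lac7 against P18 (limma adjusted p = 0.434). Lac7 against W10 gave -0.39 ± 0.17, with a limma adjusted p that rounded to 0.05 and lay just above the threshold. With size factors all 3 had the opposite sign, from 0.03 to 0.16, with limma adjusted p of 0.381 to 0.889. Inv3 against W10 was not called in RPM (0.25 ± 0.17, limma adjusted p = 0.258) but was with size factors (0.63, limma adjusted p = 0.00338) and on the reads with edgeR (0.66, adjusted p = 0.00242) and DESeq2 (0.63, adjusted p = 0.000644).

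miR-24-3p, the strand that both clusters can make, rose toward lactation, by an amount that depended on the scaling. It had 350.5 to 522 RPM at W10 with a median of 415, 468 to 592 at P18 with a median of 562, 587 to 716 at Lac7 with a median of 651, and 445 to 679 at Inv3 with a median of 585. W10 and Lac7 did not overlap, and every other pair of stages did. Its log2 change was 0.35 ± 0.12 from W10 to P18 (SE, limma adjusted p = 0.0207), 0.59 ± 0.12 from W10 to Lac7 (limma adjusted p = 0.000137) and 0.43 ± 0.12 from W10 to Inv3 (limma adjusted p = 0.00638). With size factors the same changes were 0.60, 1.14 and 0.81 (limma adjusted p = 7.38e-05, 9.74e-10 and 2.43e-06). The step from P18 to Lac7 was not called in RPM (0.24 ± 0.12, limma adjusted p = 0.115), except when the 12 libraries were fitted alone (limma adjusted p = 0.0406). It was called with size factors (0.54, limma adjusted p = 0.000215), edgeR (0.40, adjusted p = 0.0131) and DESeq2 (0.54, adjusted p = 6.77e-07). From Lac7 to Inv3 the change was -0.16 ± 0.12 in RPM (limma adjusted p = 0.287) and -0.20 with edgeR (adjusted p = 0.207), and it was called with size factors (-0.34, limma adjusted p = 0.014) and DESeq2 (-0.33, adjusted p = 0.00329).

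In number, 3 of the 5 members were called for P18 against W10, where 41.5% of all tested miRNAs were, and 2 for Lac7 against P18, beside 45.2%. For Inv3 against Lac7, 3 were called beside 46.9% of all, for Lac7 against W10 3 beside 66.7%, for Inv3 against W10 3 beside 39.2%, and for Inv3 against P18 2 beside 28.5%. Stages that did not overlap in any mouse were found for 2, 2, 3, 3, 1 and 0 members in the same order, where 26.7%, 29%, 24.8%, 41.7%, 15.1% and 12.5% of the tested miRNAs did not overlap. The 5 members are too few to be set apart from these shares. By member, miR-23a-3p was called in 6 of the 6 comparisons, miR-27b-3p in 5, miR-24-3p in 3, miR-27a-3p in 2 and miR-23b-3p in 0.

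The a cluster was then set against the b cluster through the ratio of the matching members within each library. How reads matching both members of a family were divided is not given, and the part this might play in the ratios below was not tested. miR-23a-3p exceeded miR-23b-3p in all 24 libraries, by 4.13- to 4.90-fold at W10 with a median of 4.40, 2.71- to 2.97-fold at P18 with a median of 2.84, 1.08- to 1.29-fold at Lac7 with a median of 1.20, and 2.79- to 3.52-fold at Inv3 with a median of 3.36. W10 lay above all other stages and Lac7 below all others, and only P18 and Inv3 overlapped. The 2 miRNAs were nearly level in lactation, where miR-23a-3p made 54.4% ± 1.85 of the miR-23 reads, against 81.6% ± 0.848 at W10, 73.9% ± 0.782 at P18 and 76.5% ± 1.5 at Inv3 (SD, n = 6).

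On the log2 scale, the ratio of miR-23a-3p to miR-23b-3p fell by 0.64 ± 0.04 (SE) from W10 to P18 and by 1.25 ± 0.05 from P18 to Lac7. From Lac7 to Inv3 it rose by 1.45 ± 0.06. The difference from W10 was -1.89 ± 0.06 at Lac7 and -0.44 ± 0.06 at Inv3. Each of these 5 differences had p = 0.00216 in a two-sided exact permutation test of 6 against 6 mice, the smallest that test can give, and p = 0.00406 after adjustment over the 60 tests of 10 member pairs at 6 stage pairs. Inv3 exceeded P18 by 0.20 ± 0.05 (exact permutation p = 0.00866, adjusted p = 0.0137), with overlapping ranges.

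The miR-27 ratio moved the same way from the opposite starting point, since here the b member dominated. miR-27b-3p exceeded miR-27a-3p by 16.6- to 35.8-fold at W10 with a median of 24.7, 45.9- to 70.9-fold at P18 with a median of 57.3, 75.3- to 98.9-fold at Lac7 with a median of 85.4, and 27.8- to 43.9-fold at Inv3 with a median of 38.8. Only W10 and Inv3 overlapped. miR-27a-3p made 4.05% ± 1.0 of the miR-27 reads at W10, 1.78% ± 0.274 in P18 glands, 1.15% ± 0.115 in Lac7 glands and 2.63% ± 0.431 at Inv3 (SD, n = 6).

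As log2 of miR-27a-3p over miR-27b-3p, the change was -1.20 ± 0.18 (SE) for P18 against W10, -0.64 ± 0.11 in the next step to Lac7 and 1.21 ± 0.11 in the step from there to Inv3. It was -1.84 ± 0.16 for Lac7 against W10 and 0.57 ± 0.13 for Inv3 against P18. Those 5 differences again had the smallest exact permutation p of 0.00216 (adjusted p = 0.00406). Inv3 stayed below W10, at -0.63 ± 0.18 (exact permutation p = 0.00433, adjusted p = 0.00764).

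**Figure D2:**
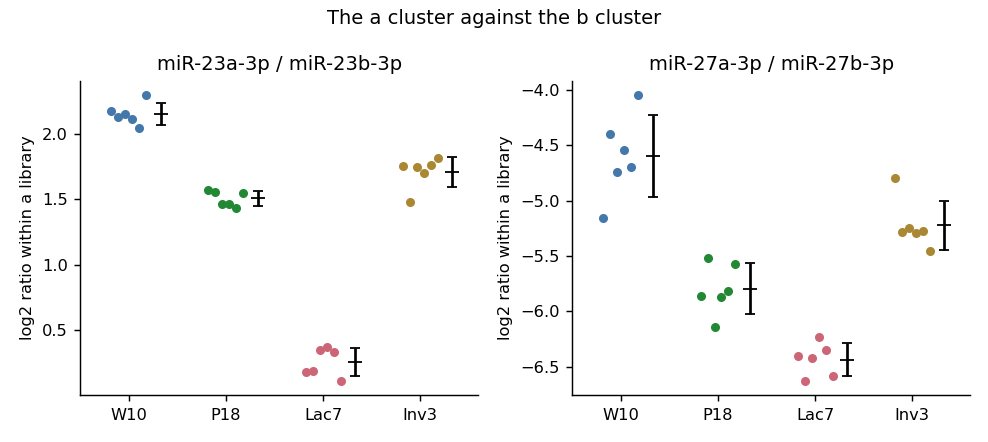
Log2 of the a member over the b member within each library (vertical axis) for miR-23 (left) and miR-27 (right), 1 dot per mouse at the 4 stages, with the mean and SD in black (n = 6). In both families Lac7 is lowest and W10 has the highest mean, and the miR-23 values stay above 0 while the miR-27 values stay below -4.

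Both families thus shifted toward the b cluster from W10 to Lac7, with steps of different size. The change of the miR-23 ratio minus that of the miR-27 ratio was 0.55 ± 0.16 (SE) from W10 to P18 (two-sided exact permutation p = 0.0108, adjusted over 6 stage pairs p = 0.0303), where the miR-27 ratio had fallen further. From P18 to Lac7 it was -0.61 ± 0.09 (exact permutation p = 0.00216, adjusted p = 0.013, stages not overlapping), where the miR-23 ratio fell further. Over the whole way from W10 to Lac7 it was -0.06 ± 0.14 (exact permutation p = 0.749, adjusted p = 0.749). From Lac7 to Inv3 it was 0.24 ± 0.11 (exact permutation p = 0.0476, adjusted p = 0.0714), from W10 to Inv3 0.18 ± 0.17 (adjusted exact permutation p = 0.361) and from P18 to Inv3 -0.37 ± 0.13 (adjusted exact permutation p = 0.0303). The call for the first step was lost without any 1 of 4 P18 mice (1, 3, 4 and 5), with adjusted exact permutation p of 0.0519 to 0.0649, and that for P18 to Inv3 without any 1 of the same 4 or Inv3 mouse 2 (0.0606 to 0.0693). The call for P18 to Lac7 held whichever mouse was left out.

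Members of the same cluster did not keep a fixed ratio to each other either. miR-27a-3p was far below miR-23a-3p in every library, at a log2 ratio of -5.10 to -4.37 at W10, -4.38 to -3.94 in P18 glands, -3.37 to -3.01 in Lac7 glands and -4.87 to -3.63 at Inv3. miR-27b-3p was above miR-23b-3p in every library, at 1.79 to 2.25 at W10, 3.01 to 3.23 in P18 glands, 3.29 to 3.67 in Lac7 glands and 1.90 to 3.43 at Inv3. In both clusters miR-27 gained on miR-23 at each step up to Lac7, and the Inv3 mice were spread widely.

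From W10 to Lac7 the gain was 1.56 ± 0.13 on the log2 scale in the a cluster and 1.505 ± 0.09 in the b cluster (SE, exact permutation p = 0.00216 and adjusted p = 0.00406 for each). In the a cluster the steps were 0.61 ± 0.14 to P18 (adjusted exact permutation p = 0.00764) and 0.95 ± 0.10 from there to Lac7 (adjusted exact permutation p = 0.00406). In the b cluster they were 1.16 ± 0.08 and 0.35 ± 0.07 (adjusted exact permutation p = 0.00406 for both), so most of the gain came by P18. By Inv3 the ratio had dropped by 0.91 ± 0.20 in the a cluster (adjusted exact permutation p = 0.00406) and by 0.67 ± 0.26 in the b cluster (adjusted exact permutation p = 0.0272). The drop in the b cluster was not called without any 1 of the 6 Lac7 mice, with adjusted exact permutation p of 0.0502 to 0.0779. The miR-27 sum was 0.753 ± 0.0915 times the miR-23 sum at W10, 2.32 ± 0.194 in P18 glands, 5.12 ± 0.489 in Lac7 glands and 1.77 ± 0.647 at Inv3 (SD, n = 6).

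**Figure D3:**
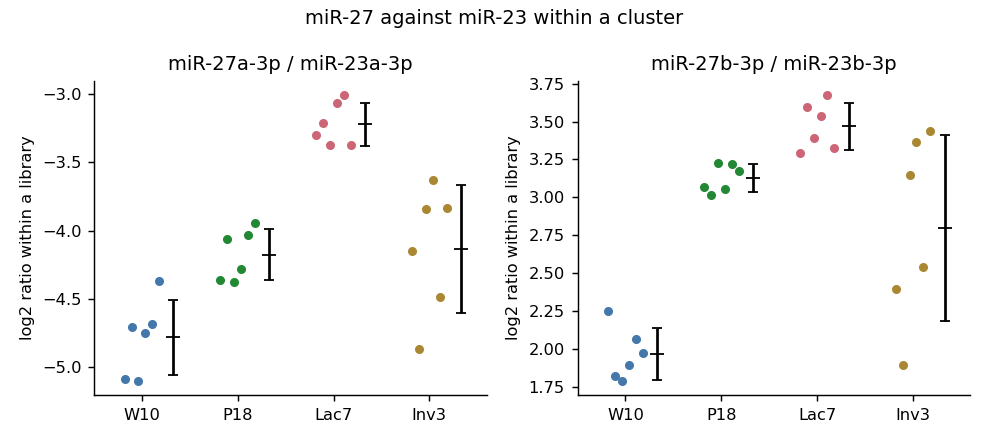
Log2 of miR-27 over miR-23 within each library (vertical axis) for the a cluster (left) and the b cluster (right), 1 dot per mouse at the 4 stages, with the mean and SD in black (n = 6). The mean rises from W10 to Lac7 in both clusters, and Inv3 is the most scattered stage, with an SD of 0.47 in the a cluster and 0.61 in the b cluster.

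The 5p strands gave a second reading of the a-to-b balance, at far lower depth. miR-27a-5p had 84.1 to 166 RPM at W10 with a median of 116, 102 to 212 at P18 with a median of 133, 66.7 to 106 at Lac7 with a median of 81.0, and 67.6 to 206 at Inv3 with a median of 162. miR-27b-5p had 1.08 to 15.1 RPM at W10 with a median of 3.83, 11.9 to 24.1 at P18 with a median of 14.4, 16.3 to 28.5 at Lac7 with a median of 19.7, and 9.22 to 18.8 at Inv3 with a median of 13.6. The latter rested on 33 reads over the 6 W10 mice and 83 to 97 at each other stage. The a strand was the more abundant of the 2 in every library, the reverse of the 3p strands.

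miR-27a-5p made 96.0% ± 2.92 of the miR-27 5p reads at W10, 88.7% ± 5.27 in P18 glands, 80.1% ± 3.02 in Lac7 glands and 91.0% ± 3.01 at Inv3 (SD, n = 6). Its log2 ratio to miR-27b-5p changed by -2.53 ± 0.35 (SE) between W10 and Lac7 and by 1.33 ± 0.23 between Lac7 and Inv3, with no overlap between mice (exact permutation p = 0.00216 and p = 0.026 adjusted over 24 tests of strand ratios, for each). Leaving out any 1 Lac7 mouse raised both adjusted exact permutation p to 0.0519, with differences of -2.61 to -2.46 and of 1.27 to 1.41. The mice still did not overlap, and with fewer splits the same separation can give a larger exact p. The changes to P18 (-1.47 ± 0.45, adjusted exact permutation p = 0.0779) and from P18 to Lac7 (-1.05 ± 0.33, adjusted exact permutation p = 0.0693) were not called. The 3p-to-5p ratio of a hairpin was tested for miR-23b, miR-27a and miR-27b, and 0 of 18 tests passed the threshold by exact permutation (lowest adjusted p = 0.156), with 1 at an unadjusted p under 0.05.

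The 5p share differed greatly between the hairpins. miR-27a-5p made 17.7% ± 4.55 of the reads of both miR-27a strands at W10, 23.1% ± 8.57 in P18 glands, 16.3% ± 2.25 in Lac7 glands and 17.9% ± 4.64 at Inv3 (SD, n = 6). miR-27b-5p made 0.0385% ± 0.0324, 0.0614% ± 0.0172, 0.0557% ± 0.0124 and 0.0558% ± 0.0162 of the miR-27b reads at those stages. The miR-27a share was thus higher by more than 100 times in every stage mean, without overlap between the hairpins in any mouse. The 3p strands counted in these shares differ at 1 of 21 bases, and how reads matching both were divided is not given. The part of that division in the shares was not tested. The remaining strands were near the limit of detection, with 8 reads for miR-23a-5p, 19 for miR-23b-5p, 18 for miR-24-1-5p and 15 for miR-24-2-5p over all 24 libraries, so a difference between stages was not detectable at this depth.

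For miR-24-3p the files hold a further strand that bears on its level. miR-3074-5p is catalogued on the minus strand across both miR-24 hairpins, and the sequences are shown to make the overlap visible, with the complementary run of 20 bases in capitals in each:
miR-24-3p: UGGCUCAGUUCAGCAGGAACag
miR-3074-5p: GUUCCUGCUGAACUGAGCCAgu
The table listed miR-3074-5p at 4671 ± 878 RPM at W10, 5646 ± 502 in P18 glands, 6699 ± 507 in Lac7 glands and 6228 ± 909 at Inv3 (SD, n = 6). It exceeded miR-24-3p by 9.36- to 11.6-fold in the 24 libraries, with a median of 10.5 and with stage means between 10.3 and 10.8. The library kit is described as stranded, but whether reads were assigned by strand in counting is not given in the sources used here, so the miR-24-3p level and that of miR-3074-5p cannot be told apart from these files. Their sum was 5102 ± 941, 6192 ± 547, 7342 ± 545 and 6808 ± 994 RPM over the stages, the same order as for miR-24-3p alone. miR-24-1-5p and miR-24-2-5p, which would separate the clusters, had the few reads given above, so the share of miR-24-3p from each cluster was not measurable.

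**Figure D4:**
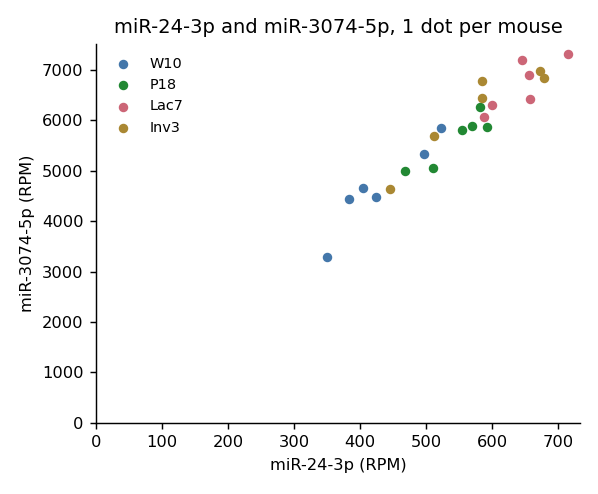
miR-24-3p (horizontal axis, RPM) and miR-3074-5p (vertical axis, RPM) in the 24 libraries, 1 dot per mouse, coloured by stage, both axes from 0. The dots lie along a line through the origin, as the ratio stays between 9.36 and 11.6.

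Mice of the same stage also varied, and the members were compared in those deviations, with log2 values taken after subtracting stage means. miR-23a-3p and miR-23b-3p, from different clusters, deviated together (24 mice, Pearson r = 0.94, Spearman rho = 0.91, permutation p = 1e-05 for each, the smallest that the 100000 permutations could give, adjusted over 10 pairs p = 0.0001). The r was 0.93 at W10, 0.94 at P18, 0.81 among Lac7 mice and 0.97 at Inv3, and 0.92 without the mice farthest from the median, Inv3 mice 1 and 2. These were the mice with the highest miR-23a-3p and miR-23b-3p at Inv3.

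No other pair passed the adjustment. Partners in the same cluster had r = -0.12 for miR-23b-3p and miR-27b-3p (Spearman rho = 0.02, adjusted permutation p = 0.74 and 0.94) and r = 0.40 for miR-23a-3p and miR-27a-3p (rho = 0.37, adjusted permutation p = 0.22 and 0.21). Within the stages the former pair gave r = 0.65, 0.69, 0.49 and -0.40 from W10 to Inv3, and 0.24 over all stages without the 2 mice farthest from the median, both at Inv3. The latter pair gave 0.73, 0.85, -0.12 and 0.11, and 0.52 without Inv3 mice 1 and 2. miR-27a-3p and miR-27b-3p gave r = 0.56 (rho = 0.45, adjusted permutation p = 0.075 and 0.19), with 0.27, 0.84, -0.55 and 0.80 within stages and 0.40 without the 2 farthest mice. All values share the library total, and the part that reads common to miR-23a-3p and miR-23b-3p might play was not tested.

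**Figure D5:**
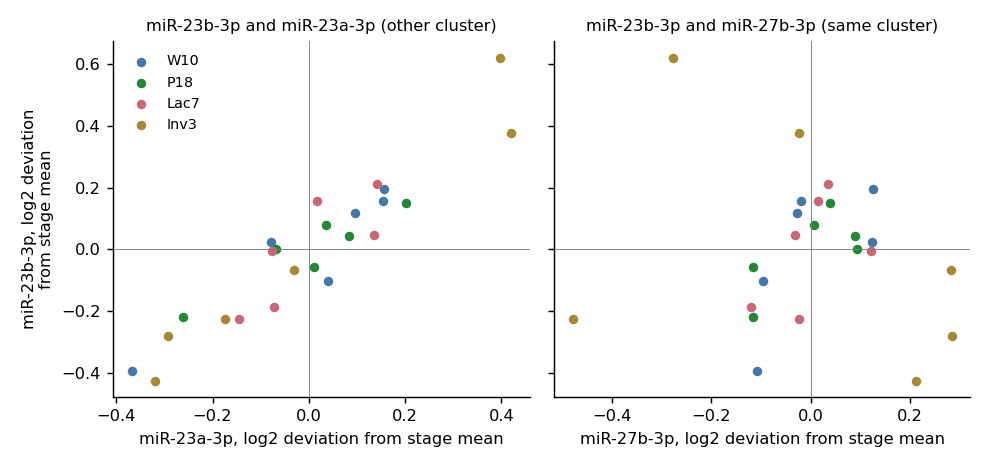
Log2 deviation from the stage mean of miR-23b-3p (vertical axes) against that of miR-23a-3p from the other cluster (left) and miR-27b-3p from the same cluster (right), 1 dot per mouse, 24 mice, coloured by stage. The left panel shows a narrow band (r = 0.94) and the right panel none (r = -0.12), with the Inv3 mice at its edges.

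As a description of the company each member kept, other miRNAs were ranked by Pearson r with it over the 24 libraries. The 153 ranked were those with a mean of 100 RPM or more over all 24 libraries. The points share stages and library totals, so no test is attached. Nearest to miR-23a-3p were miR-199a-5p (r = 0.95), a marker of fibroblasts and stroma, miR-342-3p (0.95), a miRNA of lymphocytes, and miR-224-5p (0.94). Nearest to miR-27b-3p were miR-96-5p (0.98), miR-200a-3p (0.97) and miR-429-3p (0.96), the last 2 of them miRNAs known from epithelial cells. miR-24-3p was nearest to miR-3074-5p (0.96), miR-96-5p (0.80) and miR-200b-3p (0.79). miR-27a-3p had looser neighbours in miR-145a-5p (0.77), also a marker of fibroblasts and stroma, miR-15a-5p (0.75) and miR-22-3p (0.68). miR-23b-3p had none above miR-22-3p (0.51).

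miRNAs that mark cell types also differed in level between the stages. The summed level of the 5 epithelial markers (the miR-200 family, which includes miR-141-3p) was 14825 to 20696 RPM at W10, 48824 to 63533 in P18 glands, 113670 to 133068 in Lac7 glands and 23151 to 78252 at Inv3, in the order in which miR-27b-3p rose and fell. That list holds miR-200a-3p and miR-429-3p, both named above as nearest to miR-27b-3p, so the shared order is not independent of that ranking. miR-200a-3p alone had a mean of 73975 RPM at Lac7. The 3 myeloid markers summed to 24721 to 47268 RPM at W10, 6903 to 23187 in P18 glands, 3939 to 11992 in Lac7 glands and 12884 to 23540 at Inv3, and the 3 lymphocyte markers to 3592 to 5007, 1637 to 2530, 424 to 838 and 1575 to 3743, both with their lowest median at Lac7, as for miR-23a-3p. The 5 markers of fibroblasts and stroma summed to 147025 to 171127 RPM at Lac7, 169005 to 214796 over W10 and P18, and 256725 to 349601 at Inv3. Their lowest median was also at Lac7 (160808 RPM), but their highest was at Inv3 (293292 RPM). Single markers of that list did not all follow the sum. The mean was 4897 RPM at W10 and 3173 at Inv3 for miR-199a-5p, and 1107 and 461 for miR-214-3p. For miR-145a-5p it was 1151 and 1838. The lymphocyte list holds miR-342-3p and the stroma list miR-199a-5p, both named above as nearest to miR-23a-3p. miR-342-3p made up most of the lymphocyte sum. Its mean was 2917 RPM at W10 and 481 at Lac7, where the sum had medians of 4107 and 519. The likeness of the lymphocyte list to miR-23a-3p is therefore not independent of that ranking. The 2 endothelial markers, miR-126a-3p and miR-126a-5p, summed to 12532 to 19549 RPM over all 24 libraries, with the highest median at Lac7. Skeletal muscle markers reached 22907 RPM in a W10 library and 908 at most at Inv3, and red blood cell markers lay between 371 and 1953 RPM. All markers of each list were measured and none was at 0 in all libraries, and their part in the members' changes was not tested.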

How the data were processed

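Small RNA libraries (stranded QIAseq miRNA kit, from mirVana extracts) of 24 glands were sequenced by the authors, whose submitters' processing notes name Trimmomatic 0.36, cutadapt, FastQC, MultiQC and GRCm38. The deposited table gives RPM per miRNA, with each library summing to 1000000, and reads without a miRNA are not in that total. Whole reads were recovered from the RPM steps (100% of values within 0.01 RPM). How reads matching more than 1 miRNA were divided is not given in the sources used here.

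Stages came from the sample labels and match the methods. The series design text instead has lactation on day 3 and involution on day 7. The members, marker lists and tests were chosen with earlier results of these data known, and the test of the miR-23 against the miR-27 ratio was added after their changes were seen. One fit of limma 3.58.1 (R 4.3.3, trend) covered the 24 libraries without a block, with a pseudocount of 1 RPM. The members and their opposite strands, the miRNAs catalogued over the miR-24 hairpins and the 3 miRNAs nearest each member were named. Ratios within a library were tested by two-sided exact permutation over 924 splits (scipy 1.17.1). The alternatives tried were pseudocounts of 0.1 and of 10, dropping the filter or raising it to 100 RPM, 12 libraries per fit, a replicate block, size factors, edgeR 4.0.16 and DESeq2 1.42.0 on the recovered reads, a limit on the fold change, medians, and leaving out each mouse. The statistics were checked on simulated data. The labels number the mice of a stage, and no libraries were duplicates, with a chi-square of 9.63 per degree of freedom or more in each of 60 pairs of the same stage.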

Additional observations from a re-analysis of the deposited data

Results flagged for a closer look

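Of 48 groups of 6 mice examined for a mouse standing apart (Dixon's test), 3 held one, and chance alone gives about 1 in 20. miR-27b-5p was 15.06 RPM (14 reads) in W10 mouse 4, where the other W10 mice had 1.08 to 6.12. Without that mouse the change in the log2 ratio of miR-27a-5p to miR-27b-5p was -1.73 for P18 against W10 and -1.46 for Inv3 against W10 (adjusted exact permutation p = 0.0208 for both), neither of which was called with it. The log2 ratio of miR-23a-3p to miR-23b-3p was lowest in Inv3 mouse 2, at 1.48, where the stage median was 1.75. The log2 ratio of miR-27a-3p to miR-27b-3p was highest in Inv3 mouse 1, at -4.80, where the stage median was -5.28. Without Inv3 mouse 1 the change of the miR-23 ratio minus that of the miR-27 ratio from Lac7 to Inv3 was 0.32 (adjusted exact permutation p = 0.0195).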

How the results depend on the processing

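The changes of miR-23a-3p and miR-27b-3p between consecutive stages, and both a-to-b ratios, kept direction under all alternatives run. Scaling turned the sign of differences that were at most 0.40 on the log2 scale in RPM. With size factors, edgeR and DESeq2, P18 against W10 became 0.033, 0.072 and 0.018 for miR-27a-3p and 0.072, 0.11 and 0.064 for miR-23b-3p. In the same order, Lac7 against W10 became 0.16, 0.045 and 0.13 for miR-27a-3p and 0.50, 0.40 and 0.50 for miR-23b-3p, and Inv3 against P18 became 0.022, 0.026 and 0.040 for miR-27b-3p. With size factors and DESeq2, Lac7 against P18 became 0.13 and 0.12 for miR-27a-3p, and Inv3 against Lac7 became -0.073 and -0.033 for miR-23b-3p. Inv3 against W10 became 0.032 with edgeR and 0.0074 with DESeq2 for miR-23a-3p, where it had been called in RPM (-0.40, limma adjusted p = 0.0139). For miR-23b-3p, Lac7 against W10 was called only after the change of scaling or method. The cause was not tested.

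The number of members called for Lac7 against P18 was 4 with size factors and 4 with DESeq2. A limit of 1 on the log2 fold change left 0 members for P18 against W10, 1 for Lac7 against P18, 1 for Inv3 against Lac7, 0 for Inv3 against W10 and 0 for Inv3 against P18. For Inv3 against P18 the number was 1 without the filter, 1 with the 12 libraries alone, 1 with the replicate block and 1 to 2 when a mouse was left out. The library decided miR-27a-3p there (W10 mice 2 and 5, P18 mice 1, 3, 4 and 5, all Lac7 mice, and Inv3 mice 1, 3, 4 and 6).

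Leaving out a mouse gave -0.022 to 0.19 for miR-23b-3p, Inv3 against Lac7 (below 0 without Inv3 mouse 2) and -0.081 to 0.13 for Inv3 against W10 (below 0 without W10 mouse 1, Inv3 mouse 1 or Inv3 mouse 2). The ratio of miR-27a-3p to miR-23a-3p, Inv3 against P18, ranged from -0.060 to 0.19, and the difference between the family ratios, Lac7 against W10, from -0.14 to 0.061 (above 0 without W10 mouse 1). miR-24-3p, P18 against W10, was not called without W10 mouse 1 (0.30, limma adjusted p = 0.0525). miR-27a-3p, Lac7 against W10, was called without any 1 of 8 libraries (W10 mice 1 and 3, P18 mice 2, 3 and 6, Inv3 mice 1, 2 and 5), with limma adjusted p of 0.00653 to 0.0499. The ratio of miR-27a-3p to miR-23a-3p, Inv3 against W10, was not called without W10 mouse 1 or 3 (adjusted exact permutation p = 0.0519).

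Compared by medians, the ratio of miR-23a-3p to miR-23b-3p for Inv3 against P18 was 0.24 (adjusted exact permutation p = 0.0606). Mouse numbers did not pair the libraries: over 33 same-number pairs of libraries the mean r of deviations was -0.05 (13 above 0.1) and over the 183 other pairs 0.00. In a replicate block with sign flips, the log2 changes of miR-23a-3p over miR-23b-3p were -0.62 for P18 against W10, -1.25 for Lac7 against P18, 1.45 for Inv3 against Lac7, -1.83 for Lac7 against W10, -0.43 for Inv3 against W10 and 0.20 for Inv3 against P18, and those of miR-27a-3p over miR-27b-3p were -1.13, -0.64, 1.21, -1.70, -0.47 and 0.57. The adjusted exact permutation p was 0.0872 for 11 of these 12, and 0.153 for miR-27a-3p over miR-27b-3p, Inv3 against W10, where mouse number 1 went the other way (-4.80 at Inv3 and -5.16 at W10). With at most 6 same-number pairs per comparison, sign flips could not give an adjusted p under 0.05 for any ratio. They therefore could not decide whether a ratio changed, and only the sizes of the changes can be read from them. The ratio of miR-27a-5p to miR-27b-5p, Lac7 against P18, was called without P18 mouse 6 (-1.25, adjusted exact permutation p = 0.0173). Depth limited the 5p strands other than miR-27a-5p.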
